A study of Mus musculus with 4 samples.

Results

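Cyp2e1, Cyp2j5, Cyp2j6, Cyp2j8, Cyp2j9, Cyp2r1 and Cyp2u1 are cytochrome P450 genes of family 2 that lie outside its large mouse 2a, 2b, 2c and 2d subfamilies. They were taken by symbol from a table of 56748 mouse genes measured in liver by RNA sequencing, and all 7 were found. The animals were NSG mice, an immunodeficient strain without mature B, T and natural killer cells, whose genotype the labels give as WT. Livers of 2 untreated mice were compared with those of 2 mice that received JIB-04, an inhibitor of Jumonji histone demethylases, by gavage. These had 5 doses of 55 mg/kg each, on 2 days of a week. The controls are described as untreated, not as given vehicle, each library is the liver of a separate mouse, and neither age nor the time from the last dose to collection is given in the sources used here. Expression is given as FPKM, fragments scaled to gene length and to the library's total.

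P450 enzymes are heme proteins that insert oxygen into their substrates, many of them using electrons passed on by the reductase Por. Cyp2e1 oxidizes ethanol, acetone and other small molecules and is a marker of hepatocytes around the central vein. Some Cyp2j enzymes, Cyp2j5 among them, convert arachidonic acid to epoxyeicosatrienoic acids, lipid mediators that epoxide hydrolases break down. Cyp2r1 hydroxylates vitamin D in liver to its circulating form, and Cyp2u1 hydroxylates long-chain fatty acids.

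The genes share the site at which the P450 protein holds its heme iron. Coding sequences were taken from the first-numbered GENCODE M21 transcript of each gene. In each, the stretch of 30 coding bases that spells the heme-binding signature was found 1 time. It is shown to compare the members, with the codon of the iron-binding cysteine in capitals, in the coding strand:
Cyp2e1: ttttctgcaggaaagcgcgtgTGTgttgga
Cyp2j5: ttctcaatgggaaaaagagctTGTcttgga
Cyp2j6: ttctcaatgggaaagcgagctTGCctggga
Cyp2j8: ttctcagtgggaaagagaggtTGCcctgga
Cyp2j9: ttctcaatgggaaaacgtgctTGTcttgga
Cyp2r1: ttttctctagggagaagacatTGTcttgga
Cyp2u1: tttgggatagggaagcgggtgTGTatggga
The Cyp2j5 and Cyp2j9 stretches had 28 of 30 bases in common, and Cyp2j8 and Cyp2u1 only 15. Over the whole coding sequence the Cyp2j genes were 77.5% (Cyp2j5 and Cyp2j8) to 83.1% (Cyp2j6 and Cyp2j9) identical over aligned bases, and every other pair was 60.3% to 65.6% identical. Despite this likeness, few stretches of 50 bases were shared outright: 0.174% of those in Cyp2j5 transcripts, 0.422% in Cyp2j6, 0.752% in Cyp2j8 and 0% in Cyp2j9 and Cyp2r1 occurred in transcripts of another gene. The share was 3.91% for Cyp2e1 and 12.3% for Cyp2u1, where the antisense gene 4930534D22Rik was among the genes that share it. Cyp2e1, Cyp2j5, Cyp2j6, Cyp2j8 and Cyp2j9 have 9 exons in their first-numbered transcript, and Cyp2r1 and Cyp2u1 have 5.

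Promoter sequences from RefSeq (GRCm38.p6, 250 bases before and 50 after the gene's start) were matched by symbol for 6 of the 7 members. Those of Cyp2e1, Cyp2j5 and Cyp2r1 are shown. Cyp2e1 has the highest level of the members, Cyp2j5 the lowest p in the main test, and Cyp2r1 the most CG dinucleotides. In the first the capitals mark the TATA box TATAAA, in the second the nuclear receptor core motif AGGTCA, and in the third each CG dinucleotide. They lie at chr7:140763569-140763868 (plus strand), chr4:96664070-96664369 (minus strand) and chr7:114562923-114563222 (minus strand):
Cyp2e1: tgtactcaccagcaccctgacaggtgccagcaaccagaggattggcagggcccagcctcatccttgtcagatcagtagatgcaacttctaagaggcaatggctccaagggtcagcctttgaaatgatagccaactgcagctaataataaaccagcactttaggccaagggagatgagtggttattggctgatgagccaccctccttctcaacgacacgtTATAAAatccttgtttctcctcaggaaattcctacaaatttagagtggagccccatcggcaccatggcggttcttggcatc
Cyp2j5: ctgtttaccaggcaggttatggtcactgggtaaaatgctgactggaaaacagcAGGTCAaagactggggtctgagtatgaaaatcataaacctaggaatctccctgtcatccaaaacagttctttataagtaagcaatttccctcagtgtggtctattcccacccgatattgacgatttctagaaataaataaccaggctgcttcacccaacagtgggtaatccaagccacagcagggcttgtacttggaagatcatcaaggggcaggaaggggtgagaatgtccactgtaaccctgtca
Cyp2r1: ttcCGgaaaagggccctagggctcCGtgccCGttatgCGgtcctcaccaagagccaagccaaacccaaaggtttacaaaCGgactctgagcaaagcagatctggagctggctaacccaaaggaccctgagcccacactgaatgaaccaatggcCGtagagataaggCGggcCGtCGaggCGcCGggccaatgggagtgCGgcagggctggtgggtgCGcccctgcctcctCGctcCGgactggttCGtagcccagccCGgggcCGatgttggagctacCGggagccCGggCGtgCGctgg
The TATA box of Cyp2e1 begins 31 bases before the start (position -31), and such a motif is in 14.2% of 27025 promoters of this length when both strands are searched. Cyp2j5 holds the same letters on the opposite strand at position -128, and AGGTCA on its own strand at -197. AGGTCA is in 16.0% of promoters and was in no other of the 6 matched. Cyp2r1 has 22 CG dinucleotides, more than 76.7% of promoters, and CCAAT at -105 and -64, a motif in 37.9% of promoters. With both strands searched, CCAAT was also in Cyp2e1, Cyp2j6, Cyp2j8 and Cyp2j9, and not in Cyp2j5. Cyp2e1 has 4 CG dinucleotides, Cyp2j5 has 2, Cyp2j6 has 4, Cyp2j8 has 1 and Cyp2j9 has 6, against a median of 7 over all promoters. These matches describe letters only.

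The test was limma on log2(FPKM + 1) over the 10819 genes with a mean of at least 1 FPKM, with a call at a Benjamini-Hochberg adjusted p under 0.05. It called 2.14% of these genes, and 15.5% had an unadjusted p under 0.05. Voom on the recovered reads called 5.08% of the same genes. Both JIB-04 values lay above both untreated ones in 24.6% of genes and below them in 21.8%. Counts for a gene list are to be read beside these shares.

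Reads behind the values could be recovered, since FPKM multiplied by gene length fell on whole multiples of 1 step (tolerance 0.01) for 100% of values. They came to 36469514 to 43283827 per library. Hepatocyte markers stood high in all 4 libraries, with a sum over 9 genes of 64338 and 61275 FPKM in untreated animals and 46510 and 38296 after JIB-04. Most of that sum was Alb, at 46658 and 46858 against 31689 and 22910, without overlap (ratio 0.584, unadjusted p = 0.00924, limma adjusted p = 0.144). The median log2 change of the 9 genes was -0.08. Fga and Fgb had ratios of 1.24 and 1.21 with overlap, and of the 9 genes 0 were called by limma or voom, with 1 (Alb) at an unadjusted p under 0.05. Markers of bile duct, endothelium, macrophages and stellate cells were low (summed 34.4 to 43.8, 63.1 to 81.8, 151 to 199 and 68.3 to 90.3). Of their 18 tested genes limma called 0, with 1 at an unadjusted p under 0.05 and 1 called by voom (Lrat). The 8 red cell and neutrophil genes summed to 2977 and 1851 in untreated animals and to 698 and 1853 after JIB-04, with 0 of 7 tested called by limma, 2 at an unadjusted p under 0.05 and 1 called by voom (Hba-a2). That sum is mostly haemoglobin, and the neutrophil gene S100a8 lay the other way, at 6.68 and 2.40 against 36.3 and 63.0 (unadjusted p = 0.00745, adjusted p = 0.131), while Hba-a2 had a ratio of means of 0.205 without overlap (unadjusted p = 0.0156, adjusted p = 0.185). S100a9 overlapped between the groups. Untreated 1 was above untreated 2 in 6 of 6 endothelial, 6 of 6 macrophage, 5 of 5 stellate and 7 of 7 red cell and neutrophil genes tested, against 50.1% of all tested genes. The same held for 7 of the 9 hepatocyte genes and for the 1 bile duct gene tested. The part of these cells in the results was not tested. In bulk liver, fewer cells of a type and less RNA per cell cannot be told apart.

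**Figure D1:**
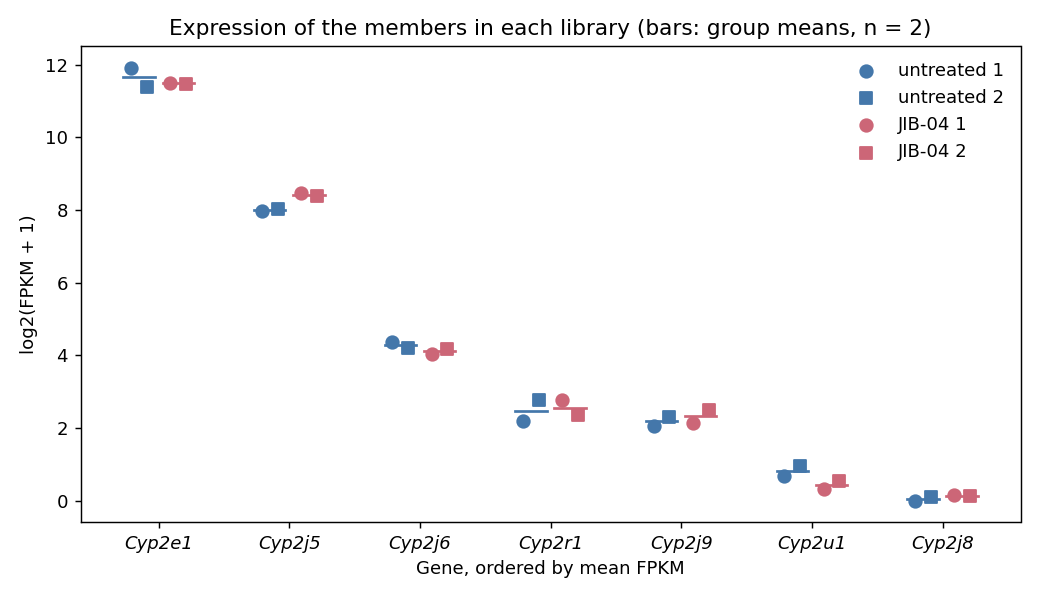
Expression of the 7 genes as log2(FPKM + 1) in each of the 4 libraries, with circles and squares for animals 1 and 2 of a group, blue for untreated, red for JIB-04, and short bars for the group means (n = 2). Cyp2e1 stands at 2703 to 3887 FPKM and Cyp2j8 at 0 to 0.108, and differences between the groups are small beside differences between the genes.

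None of the 5 members that could be tested was called changed by JIB-04, and the levels of the 7 genes ran from 0 to 7 reads per library for Cyp2j8 to 220334 to 307623 for Cyp2e1. Averaged over the libraries, Cyp2e1 was at 3087 FPKM, Cyp2j5 at 299, Cyp2j6 at 17.5, Cyp2r1 at 4.80, Cyp2j9 at 3.80, Cyp2u1 at 0.559 and Cyp2j8 at 0.0670. In this order Cyp2r1 and Cyp2j9 were the only neighbours whose values overlapped across libraries, at 3.53 to 5.77 and 3.17 to 4.61. Cyp2u1 and Cyp2j8 were under the filter of 1 FPKM. The test called 0 of 5 members where it called 2.14% of all tested genes, with 1 member (Cyp2j5) at an unadjusted p under 0.05, where 15.5% of all tested genes were, and 0 called by voom, which called 5.08%. The groups did not overlap for 2 of the 5, against 46.4% of tested genes. An exact permutation test of 2 against 2 animals cannot give a p below 0.333.

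Cyp2e1 (ENSMUSG00000025479, chromosome 7, 140343652 to 140354900, GRCm39) was the P450 gene with the highest level in untreated liver and was not called changed. It was at 3887 and 2703 FPKM in the untreated libraries (animal 1, then 2, here and throughout) and at 2891 and 2866 in those of JIB-04, from 220334 to 307623 reads. Untreated 1 was the high library, and both JIB-04 values lay between the untreated ones. The group means were 3295 ± 838 and 2879 ± 17.7 (SD, n = 2), a ratio of 0.874. The log2 change was -0.17 (SE 0.206, 95% interval -0.66 to 0.32, limma adjusted p = 0.771), so that fitted folds from 0.632 to 1.25 lay inside the interval. The direction rested on untreated 1: the log2 change was 0.091 without that library and -0.43 without untreated 2. The ratio of the untreated libraries was 1.44, larger than in 89.5% of tested genes, while that of the JIB-04 libraries was 1.01, larger than in 3.50%.

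The place of Cyp2e1 among the P450s differed between the groups, as the plot of summed P450 expression shows. Of 101 protein-coding P450 genes it ranked 1 in both untreated libraries and 3 in both JIB-04 libraries, behind Cyp3a11 and Cyp2c29. Those genes encode drug-oxidizing P450s that the xenobiotic receptors PXR and CAR induce. Cyp2e1 made up 35.1% and 26.6% of the summed P450 FPKM in the untreated libraries, against 12.9% and 12.7% in those of JIB-04. The groups did not overlap in this share, and the sum itself was 11068 and 10176 FPKM in untreated animals and 22450 and 22614 after JIB-04. With 2 animals a group the smallest exact permutation p is 0.333, so no test was made of the share.

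**Figure D2:**
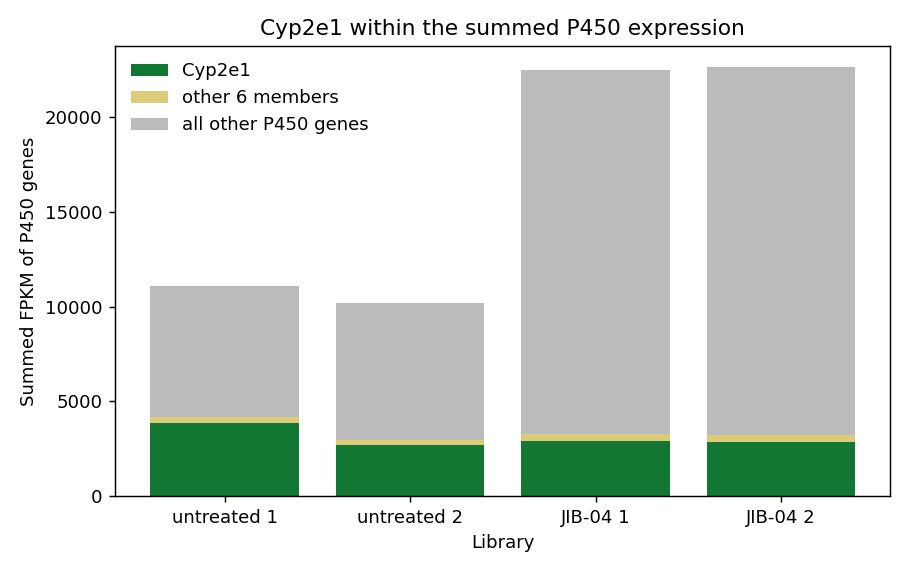
Summed FPKM of the 101 protein-coding P450 genes in each library, stacked as Cyp2e1 (green), the other 6 genes described here (yellow) and all other P450 genes (grey). The green part is of like height in JIB-04 1, JIB-04 2 and untreated 2, while the whole bar is 22450 to 22614 in JIB-04 and 10176 to 11068 in untreated liver.

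Enzymes that share ethanol as a substrate with Cyp2e1, or that handle its product, included 1 gene that rose. Of 10 tested genes of ethanol and acetaldehyde oxidation, Cyp2e1 included, 1 was called higher and 0 lower, with a median log2 change of 0.06 against 0.01 over all tested genes (calls higher made up 1.53% and calls lower 0.619% of those). The gene that rose was Aldh1a1, an aldehyde dehydrogenase that also oxidizes retinal. It stood at 159 and 178 FPKM in untreated animals and at 848 and 926 after JIB-04 (log2 change 2.39, SE 0.140, limma adjusted p = 0.000554), and it was called in all 15 alternatives. In all, 3 of the 10 had an unadjusted p under 0.05 (15.5% of all tested genes), and voom called Aldh1a1 alone (5.08% of all). The other two were Adh7, an alcohol dehydrogenase that also oxidizes retinol, at 7.87 and 8.64 against 5.41 and 6.03 (lower without overlap, adjusted p = 0.132), and Aldh3a2, a fatty aldehyde dehydrogenase, at 59.6 and 48.7 against 73.1 and 80.1 (higher without overlap, 0.154). Adh1, the main hepatic alcohol dehydrogenase, was at 563 and 651 in untreated animals and 705 and 738 after JIB-04 (adjusted p = 0.489). Catalase (Cat), a peroxisomal enzyme that can also oxidize ethanol, was at 727 and 763 against 753 and 910 (adjusted p = 0.715), and mitochondrial Aldh2 at 339 and 316 against 326 and 348 (0.932).

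Transcription factors linked to Cyp2e1 expression in liver had 0 of 8 called by limma, against 2.14% of all tested genes. An unadjusted p under 0.05 was found for 3 (15.5% of all), and voom called 1, Cebpa (5.08% of all). The median log2 change of the 8 factors was -0.15. Of the 8, 4 had both JIB-04 values below both untreated ones, as had 21.8% of all tested genes. Cebpa, a hepatocyte differentiation factor, was at 145 and 169 FPKM in untreated animals and at 104 and 108 after JIB-04 (adjusted p = 0.101). Ppara, the fasting and fatty acid receptor, was at 31.5 and 30.2 against 25.8 and 15.2 (adjusted p = 0.319), and Foxo1, a target of insulin signalling, at 5.75 and 4.26 against 3.27 and 3.69 (0.273).

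Of the pericentral genes, which share the zone of Cyp2e1, 13 were tested. Limma called 1 higher and 1 lower, as it did 1.53% and 0.619% of all tested genes. The median log2 change was -0.21. An unadjusted p under 0.05 was found for 5, against 15.5% of all tested genes, and voom called 3 (Gulo, Oat and Slc1a2), against 5.08%. Without overlap, 5 of the 13 were lower after JIB-04 and 1 higher, against 21.8% and 24.6% of all tested genes. Gulo, the enzyme that completes ascorbate synthesis, fell from 216 and 204 to 106 and 103 FPKM (ratio of means 0.496, limma adjusted p = 0.0140). Oat, ornithine aminotransferase, rose from 153 and 132 to 271 and 322 (log2 change 1.05, adjusted p = 0.0248). Glul, glutamine synthetase of the cells nearest the central vein, was at 281 and 232 against 190 and 234 (adjusted p = 0.513). Summed over its 15 genes the list stood at 1261 and 1256 FPKM in untreated animals and at 1117 and 1237 after JIB-04. Large genes offset each other in that sum, since Glul was higher in untreated 1 and Cyp1a2 (221 and 281) in untreated 2. Untreated 1 was above untreated 2 in 9 of the 13, against 50.1% of tested genes. Of 12 periportal genes, 0 were called by limma (median -0.09), with 6 at an unadjusted p under 0.05 and 3 called by voom (Ass1, Cyp2f2 and Gls2). Without overlap, 3 of the 12 were lower after JIB-04, Ass1 and Gls2 among them, and 5 were higher, Cyp2f2 among them. With JIB-04 1 left out Gulo was no longer called (adjusted p = 0.120), nor with JIB-04 2 left out (0.143). Oat was not called with untreated 2 (0.0731), JIB-04 1 (0.125) or JIB-04 2 (0.192) left out. The adjusted p of Gulo lay between 0.000609 and 0.143 in the 15 alternatives, and that of Oat between 0.00101 and 0.211.

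Cyp2j5 (ENSMUSG00000052520, chromosome 4, 96517010 to 96552391), an epoxygenase of mouse liver and kidney, had the lowest p of the members in the main test. That test left out Cyp2u1 and Cyp2j8. It was at 250 and 260 FPKM in untreated animals and at 355 and 332 after JIB-04, from 21527 to 35684 reads. Both JIB-04 values lay above both untreated values, as in 24.6% of tested genes. The means were 255 ± 6.60 and 343 ± 16.4 (SD, n = 2), a ratio of 1.35, with a log2 change of 0.43 (SE 0.129, 95% interval 0.12 to 0.73). The unadjusted p was 0.0136, and the limma adjusted p of 0.172 was not past the threshold. Over 15 alternatives the log2 change was between 0.33 and 0.48 and the adjusted p between 0.116 and 0.459.

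Cyp2j6 (ENSMUSG00000052914, chromosome 4, 96404375 to 96441898) stood at 19.8 and 17.4 FPKM in untreated animals and at 15.5 and 17.1 after JIB-04. The groups did not overlap, with JIB-04 lower, as in 21.8% of tested genes. The ratio of means was 0.878 and the log2 change -0.18 (SE 0.127, 95% interval -0.48 to 0.13, limma adjusted p = 0.592). Cyp2j9 (ENSMUSG00000015224, chromosome 4, 96456666 to 96479815) was at 3.17 and 3.97 against 3.44 and 4.61, with overlapping groups and a log2 change of 0.13 (SE 0.164, interval -0.26 to 0.52, adjusted p = 0.780). Its sign turned without JIB-04 2 (-0.036). Cyp2j8 (ENSMUSG00000082932, chromosome 4, 96332833 to 96395623) had 0 and 4 reads in untreated animals and 7 and 5 after JIB-04, which is at most 0.108 FPKM. A count of 0 allows up to 3 reads, or 0.0541 FPKM in untreated 1, and the Cyp2j8 values cannot show a difference at this depth.

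Expression in the Cyp2j cluster was held by its last genes along chromosome 4. The table has 13 Cyp2j genes, 8 of them protein-coding and 5 pseudogenes, all on the minus strand between 95915771 and 96552391. In order of rising coordinate, the first 9 held 2 reads in all (Cyp2j13 in untreated 1), and 8 of these 9 were at 0 in every library, among them the coding genes Cyp2j12, Cyp2j7 and Cyp2j11. Cyp2j8, Cyp2j6, Cyp2j9 and Cyp2j5 followed in that order. The neighbours outside the cluster were Hook1, a gene for a microtubule-binding adaptor, at 10.6 and 11.5 against 10.3 and 7.87 FPKM (limma adjusted p = 0.479), and Gm12695, at 0 reads.

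**Figure D3:**
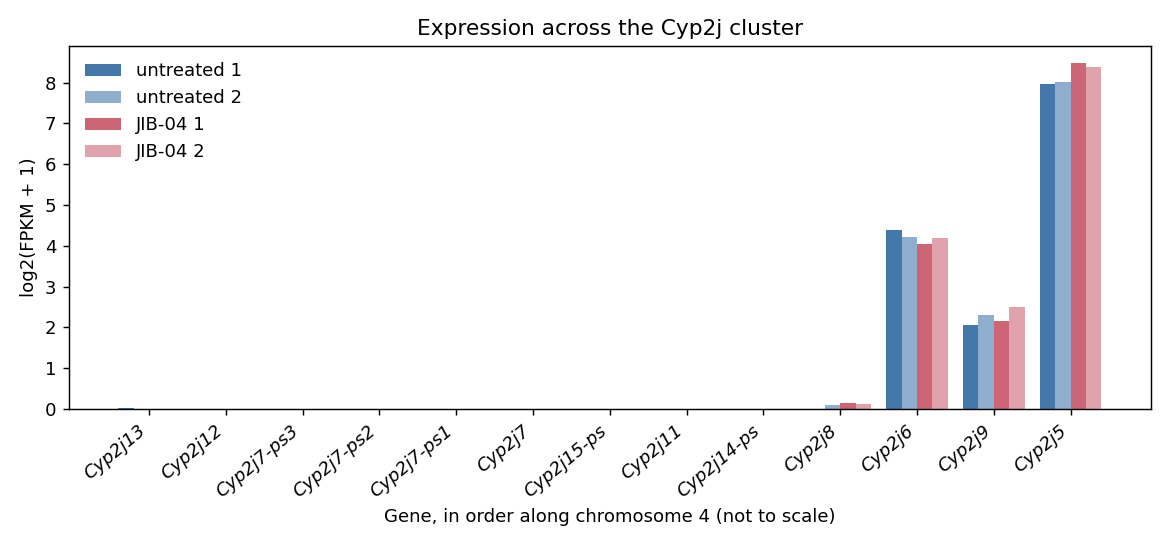
Level of each of the 13 Cyp2j genes as log2(FPKM + 1) in the 4 libraries (blue untreated, red JIB-04), in chromosomal order but not to scale. Bars are visible at the right end only, from Cyp2j8 to Cyp2j5, apart from 2 reads of Cyp2j13.

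Cyp2j5 made up 91.6% and 92.4% of the summed Cyp2j FPKM in untreated animals, and 94.9% and 93.8% after JIB-04. The sum was 277 ± 5.56 FPKM in untreated animals and 364 ± 14.4 after JIB-04 (SD, n = 2). The ratio of Cyp2j5 to Cyp2j6 was 12.7 and 14.9 in untreated animals and 22.9 and 19.4 after JIB-04, with no overlap. That of Cyp2j5 to Cyp2j9 was 79.0 and 65.5 against 103 and 72.0, with overlap. These shares and ratios were chosen after the values were seen and were not tested.

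Genes that supply arachidonic acid or break down epoxyeicosatrienoic acids were listed. The list also held the receptor genes Ppara and Pparg and the fatty acid binding protein gene Fabp1. Of its genes 14 were tested, 3 were called higher (1.53% of all tested genes were) and 0 lower (0.619%). The median log2 change was -0.01. Of the 14, 9 had an unadjusted p under 0.05, Ppara and Pparg among them, against 15.5% of all tested genes. Voom called 4, the same 3 and Fads2, against 5.08%. Without overlap, 6 of the 14 were higher after JIB-04 and 3 lower, against 24.6% and 21.8% of all tested genes. Ephx1, the microsomal epoxide hydrolase, rose from 153 and 152 to 332 and 454 FPKM (log2 change 1.34, limma adjusted p = 0.0178). The phospholipase genes Pla2g12a and Pla2g6 rose from 4.87 and 3.16 to 15.7 and 12.8 (adjusted p = 0.0176) and from 12.5 and 8.60 to 25.2 and 24.8 (0.0292). Of the genes of arachidonic acid synthesis, 2 had lower values. The desaturase gene Fads2 was at 225 and 188 against 128 and 129 (adjusted p = 0.0674), and the elongase gene Elovl5 at 157 and 146 against 72.6 and 112 (unadjusted p = 0.0126, adjusted p = 0.165), both without overlap. Fads1, also a desaturase gene, overlapped at 138 and 139 against 146 and 139. Untreated 1 was above untreated 2 in 12 of the 14. Ephx2, the soluble hydrolase that is the main enzyme of epoxyeicosatrienoic acid breakdown, was at 181 and 139 against 134 and 153, with overlapping groups (adjusted p = 0.756). These 3 calls ended when either JIB-04 library was left out. Leaving out JIB-04 1 gave adjusted p of 0.0684 for Ephx1, 0.152 for Pla2g12a and 0.185 for Pla2g6, and leaving out JIB-04 2 gave 0.123, 0.143 and 0.230. Pla2g6 was also not called with untreated 2 left out (0.0536). The adjusted p of the 15 alternatives reached up to 0.200 for Ephx1, 0.195 for Pla2g12a and 0.242 for Pla2g6, from 0.00025 for the first pair and 0.000949 for Pla2g6.

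Cyp2r1 (ENSMUSG00000030670, chromosome 7, 114148917 to 114162207) was at 3.53 and 5.77 FPKM in untreated animals and at 5.77 and 4.15 after JIB-04, from 274 to 523 reads. Each group held a high and a low animal, and the groups overlapped. The means were 4.65 ± 1.58 and 4.96 ± 1.15 (SD, n = 2), with a log2 change of 0.09 (SE 0.235, 95% interval -0.49 to 0.68, limma adjusted p = 0.911). The sign turned without untreated 1 (-0.20) and without JIB-04 1 (-0.11). Its neighbour Pde3b, a phosphodiesterase gene that ends 10430 bases away, was at 12.1 and 13.6 against 15.8 and 11.8 (adjusted p = 0.871), and Calca on the other side had 0 reads.

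Of 11 genes of vitamin D handling 6 were tested and 0 were called by limma, against 2.14% of all tested genes. An unadjusted p under 0.05 was found for 3 (15.5% of all), and voom called 1, Pdia3 (5.08% of all). The median log2 change of the 6 was 0.23. Cyp27a1, a mitochondrial P450 that can also hydroxylate vitamin D, was at 121 and 145 FPKM in untreated animals and 165 and 178 after JIB-04 (adjusted p = 0.286). Gc, the plasma carrier of vitamin D, was at 3619 and 3388 against 3616 and 3651 (0.922). Dhcr7, which draws the vitamin D precursor into cholesterol synthesis, was at 17.1 and 25.4 against 36.3 and 30.8 (0.190), and Pdia3, an endoplasmic reticulum protein reported to bind the hormone, at 93.9 and 112 against 162 and 163 (0.0695). The activating and inactivating enzymes of the kidney were near 0, with 0, 3, 2 and 2 reads for Cyp27b1 and 0 reads for Cyp24a1, and the receptor gene Vdr had 6, 0, 4 and 8 reads (untreated animals first).

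Cyp2u1 (ENSMUSG00000027983, chromosome 3, 131082090 to 131096876) had the ratio farthest from 1 among the 6 genes other than Cyp2j8, whose few reads give none, but its level was under the filter of the main test. It was at 0.614 and 0.934 FPKM in untreated animals and at 0.240 and 0.447 after JIB-04, from 118 and 185 against 54 and 86 reads. Both JIB-04 values were below both untreated values, and the ratio of the means was 0.444. Because the gene is long (5242 bases), its reads allow a test that its FPKM does not, and voom was run on the 12476 genes with a mean of at least 50 reads, an alternative chosen after seeing the data. The log2 change was -1.23 (SE 0.402, 95% interval -2.09 to -0.38) with an unadjusted p of 0.00767 and an adjusted p of 0.104 (limma voom), so it was not called, where 5.18% of those genes were (1.99% with the lower direction). Both JIB-04 values lay below both untreated ones in 22.3% of those genes. The values without 1 library in turn were -0.76 to -1.65, with adjusted p from 0.0511 to 0.492. In the limma fit without a filter the log2 change was -0.40 (adjusted p = 0.596), on a scale where the added 1 outweighs the FPKM. The antisense RNA gene 4930534D22Rik, which overlaps Cyp2u1, held 1 read in all, and whether counting used the strand is not stated.

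**Figure D4:**
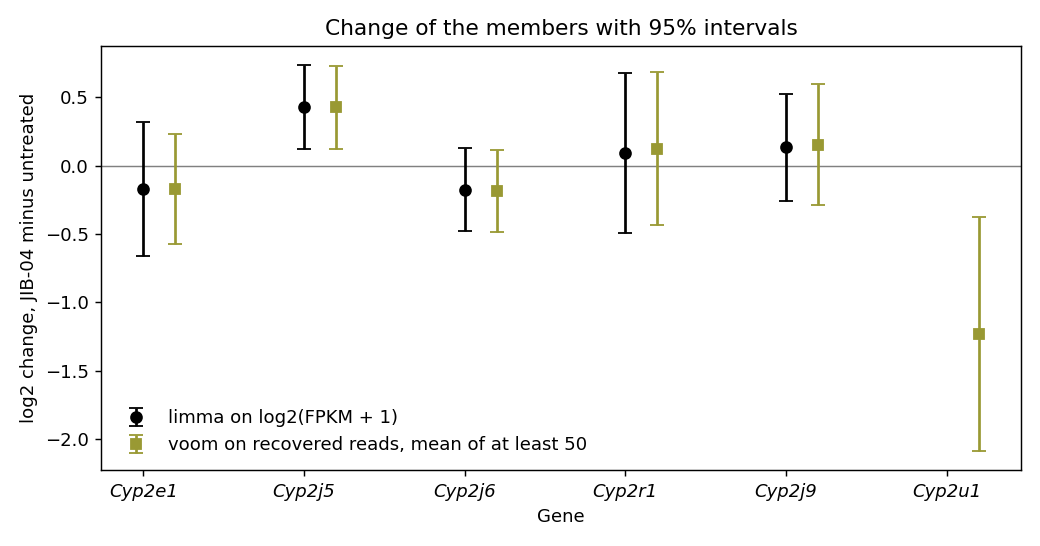
Log2 change between JIB-04 and untreated liver with 95% intervals, for limma on log2(FPKM + 1) (black circles) and for voom on recovered reads (olive squares), by gene. The intervals of Cyp2j5 and Cyp2u1 do not reach 0, those of the other 4 genes do, and 0 of the genes shown passed the adjusted threshold.

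The coding genes on either side of Cyp2u1 were not called. Hadh, a mitochondrial enzyme of fatty acid oxidation, was at 86.2 and 70.9 against 68.5 and 68.3 FPKM (limma adjusted p = 0.593), and Sgms2, a sphingomyelin synthase gene, at 7.89 and 6.32 against 9.31 and 8.20 (0.445). Among the fatty acid hydroxylases, 0 of 10 tested genes were called by limma (median log2 change -0.23), against 2.14% of all tested genes. An unadjusted p under 0.05 was found for 3 (15.5% of all), and voom called 1, Cyp4v3 (5.08% of all). Cyp4v3 was at 48.4 and 47.3 against 34.3 and 34.3 (adjusted p = 0.108), Cyp4f14 at 83.9 and 138 against 56.6 and 62.6 (0.185), and Cyp4a14, a target of the receptor PPAR alpha, at 30.3 and 8.87 against 1.61 and 2.68 (0.283). The groups of Cyp4v3, Cyp4f14 and Cyp4a14 did not overlap. Without overlap, 4 of the 10 were lower after JIB-04 and 1 higher, against 21.8% and 24.6% of all tested genes. The higher one was Cyp4f15, at 89.4 and 75.5 against 102 and 103 (limma adjusted p = 0.330).

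The list of P450 partners held genes of electron transfer (Por, Cyb5a, Cyb5b, Cyb5r3, Fdx1 and Fdxr) and also Pgrmc1 and Pgrmc2. After JIB-04, 6 of these 8 stood higher without overlap, Pgrmc1 and Pgrmc2 among them, against 24.6% of all tested genes. Limma called 0 of 8, with 6 at an unadjusted p under 0.05 (15.5% of all genes were). Voom called 4 (Por, Pgrmc1, Cyb5a and Fdxr, where 5.08% of all genes were). The median log2 change of this list was 0.48. Por was at 207 and 149 FPKM in untreated animals and at 349 and 291 after JIB-04 (adjusted p = 0.0889), Pgrmc1, a heme-binding partner of P450s, at 624 and 639 against 983 and 1085 (0.0606), and Cyb5a, cytochrome b5, at 345 and 325 against 468 and 538 (0.106).

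Set beside other genes of their family, the 5 tested members had small differences. The median of their absolute log2 changes was 0.17, against 0.52 in the 31 other tested family 2 P450 genes and 0.14 in all tested genes. Of those 31, 5 were called higher and 3 lower by limma. The difference between the sets was not tested. The P450 genes with the profile most like that of each member over the 4 libraries were found by the root mean square difference of centred log2(FPKM + 1). They were Cyp2d26 for Cyp2e1 (0.121), Cyp27a1 for Cyp2j5 (0.106), Cyp4f17 for Cyp2j6 (0.108), Cyp2d10 for Cyp2j9 (0.0743) and Cyp2a4 for Cyp2r1 (0.143). Next in line were Cyp2d40 (0.137), Cyp3a13 (0.114), Cyp2b9 (0.109), Cyp20a1 (0.0948) and Cyp2c70 (0.179), in the same order. Cyp2d26 resembled Cyp2e1 in its high value in untreated 1 (500, against 384 in untreated 2 and 458 and 448 after JIB-04).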

How the data were processed

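Liver RNA of 2 untreated and 2 JIB-04-treated NSG mice was extracted with Trizol and prepared by a company's standard protocol, per the labels' protocols. The authors deposited 1 table of FPKM values per gene and library, with gene lengths and coordinates. The build GRCm39 is named in the submitters' processing notes, and no source used here names the aligner, counter, annotation release or strand setting. Unit steps in FPKM times length were used to recover reads (36469514 to 43283827 per library), so precision differs with reads per gene, and floors cover counting error only. Values were log2(FPKM + 1), filtered at a mean FPKM of 1 and tested with limma 3.58.1 in R 4.3.3 (two-sided, moderated with trend and robust options on 2 residual degrees of freedom, Benjamini-Hochberg adjusted p under 0.05 over 10819 genes). The fit was also tested on simulated data, but the outcome is not given here and no error rate is claimed from it. Members, lists and tests were chosen with earlier results of these data known. Genes named were the members, all Cyp2j genes, flanking coding genes, called list genes or up to 3 others of lowest p, and the 2 P450 genes of most similar profile; a few list genes were named after their values were seen (Adh1, Cat, Aldh2, Glul, Ephx2, Gc, the hepatocyte and blood cell markers, Slc1a2, Cyp1a2, Fads1, Elovl5, S100a9, the vitamin D genes near 0). Shared sequence was counted in GENCODE M21 transcripts as stretches of 50 bases, on both strands, and coding sequences were aligned globally (Biopython 1.88). Transcript and promoter sequences are of GRCm38, and no coordinate was converted.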

Additional observations from a re-analysis of the deposited data

How the results depend on the processing

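The count of members called was 0 in all alternatives run. The number of all genes called was 232, and it was 20 without the filter (over genes with any read), 550 with voom on recovered reads, 397 with protein-coding genes only, 464 at an adjusted p under 0.1, 357 with the replicate number as a block, and 23 to 156 without 1 library in turn (30 without JIB-04 1, 23 without JIB-04 2). Without 1 library an arm holds 1 animal, which is assumed to vary like the other group. Cyp2e1 had a log2 change of -0.43 to 0.091 over these, turning to 0.091 without untreated 1, and -0.45 with quantile normalization. Cyp2j9 lay between -0.036 and 0.30, turning to -0.036 without JIB-04 2, and Cyp2r1 between -0.20 and 0.38, turning to -0.20 without untreated 1 and -0.11 without JIB-04 1. The cause was not tested. Cyp2j5 and Cyp2j6 kept their sign in all 15 alternatives. The replicate numbers are not said to pair animals (correlation of deviations -0.05), and the block changed no call among the members. Depth limits Cyp2j8, with 0 to 7 reads, and Cyp2u1, with 54 to 185.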
